A study of Homo sapiens with 9 samples.

Results

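Complement genes, 9 of the 58381 genes in the deposited tables, were described in TC-32 cells, a human Ewing sarcoma cell line driven by the EWSR1::FLI1 fusion. They are the serine proteases C1R and C1S, their inhibitor SERPING1, the central component C3, the convertase protease CFB, the protease CFI, and the membrane regulators CD46, CD55 and CD59. The genes were chosen by their symbols, with earlier results of these libraries known. The values behind that choice are not recorded, so every level and difference of the 9 genes in the 3 comparisons counts as used in it and is given as a description. Where a member passed the call rule of the fit across all genes, this is stated beside the share of all genes that passed, and is not read as a test of that member.

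All 9 libraries came from TC-32 cells transduced with the lentiviral vector pLOC, selected with puromycin and sorted as single cells, with 3 libraries in each group. The RFP group carried pLOC RFP, a red fluorescent protein, as the control. The ETS1-Low and ETS1-High groups carried pLOC ETS1, a synthetic cDNA of the human transcription factor ETS1, and are described as clones with a lower and a higher ETS1 level, all in cells that still hold EWSR1::FLI1. The number of clones in a group is not given, nor whether the RFP cells were a clone, nor whether the 3 libraries of a group were separate cultures. A difference between groups therefore cannot be told apart from a difference between clones, and any p-value measures only the spread between libraries, which may be technical.

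Complement is a cascade of plasma proteases that marks surfaces for removal and can end in a pore through the membrane. In the classical pathway, C1q bound to its target activates C1r, which cleaves C1s, and C1s then cleaves C4 and C2, while the lectin pathway reaches the same step through the MASP proteases and the alternative pathway runs through factor B and factor D. All 3 routes meet at the cleavage of C3, and the body's own cells hold it in check with C1 inhibitor (SERPING1) in the fluid phase, with CD46 and CD55 at the C3 step and with CD59 at the pore. The liver makes most of the plasma proteins, and many other cell types make some of them, with C1R, C1S, C3, CFB and SERPING1 known as genes that interferon and inflammatory cytokines induce.

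The totals of the expected counts ran from 39484704 to 46654734 per library. ETS1 was at 2.00 ± 0.17 CPM (read counts scaled to a fixed library size after TMM normalisation, mean ± SD, n = 3, as throughout) in RFP, 10.6 ± 0.30 in ETS1-Low and 19.1 ± 0.81 in ETS1-High, with no overlap between groups. All 10 Ewing sarcoma markers looked for passed the filter on low counts, and CCND1 and NR0B1 led them at mean FPKM (fragments scaled to transcript length and library size) of 584 and 231. Their summed FPKM ran from 1078.3 to 1099.5 in RFP, 1532.4 to 1560.3 in ETS1-Low and 1558.9 to 1573.7 in ETS1-High. Of 10 hepatocyte markers 2 passed the filter, TTR, FGA and FGG were at 0 in every library, and the list's summed FPKM ran from 0.58 to 0.81 in RFP, 0.24 to 0.56 in ETS1-Low and 0.37 to 0.57 in ETS1-High. The summed FPKM of 10 myeloid markers ran from 2.82 to 3.72, from 1.51 to 2.09 and from 0.82 to 1.2 in the same order of groups, with 3 past the filter and none at 0 in every library. Of 10 fibroblast markers 8 passed, with sums of 203 to 210, 130 to 132 and 157 to 159, and of 10 endothelial markers 6 passed, with sums of 9.05 to 10.6, 1.53 to 2.34 and 2.66 to 3.4. Their part in the levels of the complement genes was not tested. All libraries came from the TC-32 cell line, so these sums describe marker transcripts and are not read as numbers of other cells.

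Sequence before a RefSeq transcript start is shown for the 3 members whose windows hold a motif bound by interferon-activated factors. The CFB and C1R windows printed lie inside the GENCODE bounds of their genes, before a transcript start further in. C1R and CFB are among the cytokine-induced genes named above, and CD59 is shown only for its match. RefSeq (GRCh38.p14) gave 11 windows of 250 bases before a transcript start for 6 of the 9 genes. C1S, C3 and SERPING1 had no entry. Both strands were searched for GAS (TTCNNNGAA), the core of the interferon-stimulated response element (GAAANNGAAA), the ETS core (CCGGAA), 3 GGAA repeats in a row and the NF-kB consensus. Capitals mark the GAS or, in the first CFB stretch, the response element core, which lies on the opposite strand 140 to 131 bases before the start. Only the CFB bases outside the annotated untranslated exons are printed, with the GAS match at 92 to 84 bases before the start shown with 10 bases on each side. The C1R and CD59 windows lie on the minus strand and are printed in the direction of the gene.
CFB, chr6:31945845-31945982, plus strand: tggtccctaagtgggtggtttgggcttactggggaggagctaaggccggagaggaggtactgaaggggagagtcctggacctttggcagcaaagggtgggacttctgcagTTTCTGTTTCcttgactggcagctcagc
CFB, chr6:31945993-31946021, plus strand: cgcttggatgTTCCGGGAAagtgatgtgg
C1R, chr12:7091894-7092143, minus strand: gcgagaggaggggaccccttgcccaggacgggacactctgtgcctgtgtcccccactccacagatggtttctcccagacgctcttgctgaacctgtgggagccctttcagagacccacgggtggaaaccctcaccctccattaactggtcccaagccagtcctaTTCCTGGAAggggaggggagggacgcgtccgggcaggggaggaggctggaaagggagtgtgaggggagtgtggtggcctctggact
CD59, chr11:33736480-33736729, minus strand: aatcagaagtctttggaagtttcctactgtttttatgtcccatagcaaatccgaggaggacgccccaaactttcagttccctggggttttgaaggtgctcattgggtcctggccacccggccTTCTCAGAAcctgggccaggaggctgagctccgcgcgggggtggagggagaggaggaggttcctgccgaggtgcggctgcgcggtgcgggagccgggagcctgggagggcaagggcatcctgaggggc

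GAS was found in the CFB window and in 1 of the 2 C1R windows, at 86 to 78 bases before the start. It was also found in 2 of the 4 CD59 windows, which overlap and hold the same site, at 128 to 120 bases in the window printed. Of all 35116 windows of this length in the table, 6.57% held a GAS, 3.02% the response element core and 0.31% both, as the CFB window did. These shares are per window and do not allow for several windows of a gene. The first 6 bases of the CFB GAS are also an ETS core read on the opposite strand. Both CD46 windows, which overlap, held the same ETS core on the opposite strand. An ETS core is held by 14.5% of all windows. The CD55 and CFI windows held none of the 5 motifs, nor did the other C1R window, chr12:7092446-7092695, which spans the annotated start of that gene. These matches describe letters in a window and no binding was measured.

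Levels between genes were compared on the FPKM scale, which is per length. In the RFP libraries the order was CD46 (57.4), CD59 (38.6), SERPING1 (15.6), C1R (3.87), C1S (1.41), CD55 (0.243), C3 (0.103), CFB (0.06) and CFI (0), where the median tested gene was at 7.25. In RFP the range of C3 overlapped that of CFB and the range of CFB overlapped that of CFI, so these neighbours did not differ beyond their spread, while C3 lay above CFI in every library. In ETS1-Low the order ran CD46 (54.1), CD59 (35.1), SERPING1 (4.76), C1R (4.35), CD55 (2.7), C1S (1.46), C3 (0.80), CFB (0.09) and CFI (0.0067), and SERPING1 overlapped C1R and C1S overlapped C3. In ETS1-High it ran CD46 (63.2), CD59 (53.7), C1R (8.07), C3 (3.90), SERPING1 (2.12), CD55 (1.30), C1S (0.487), CFB (0.467) and CFI (0.03), and C1S overlapped CFB. CD46 and CD59 thus kept the first and second places in each group, while SERPING1 stood before C1R and C3 in RFP and behind both in ETS1-High.

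**Figure D1:**
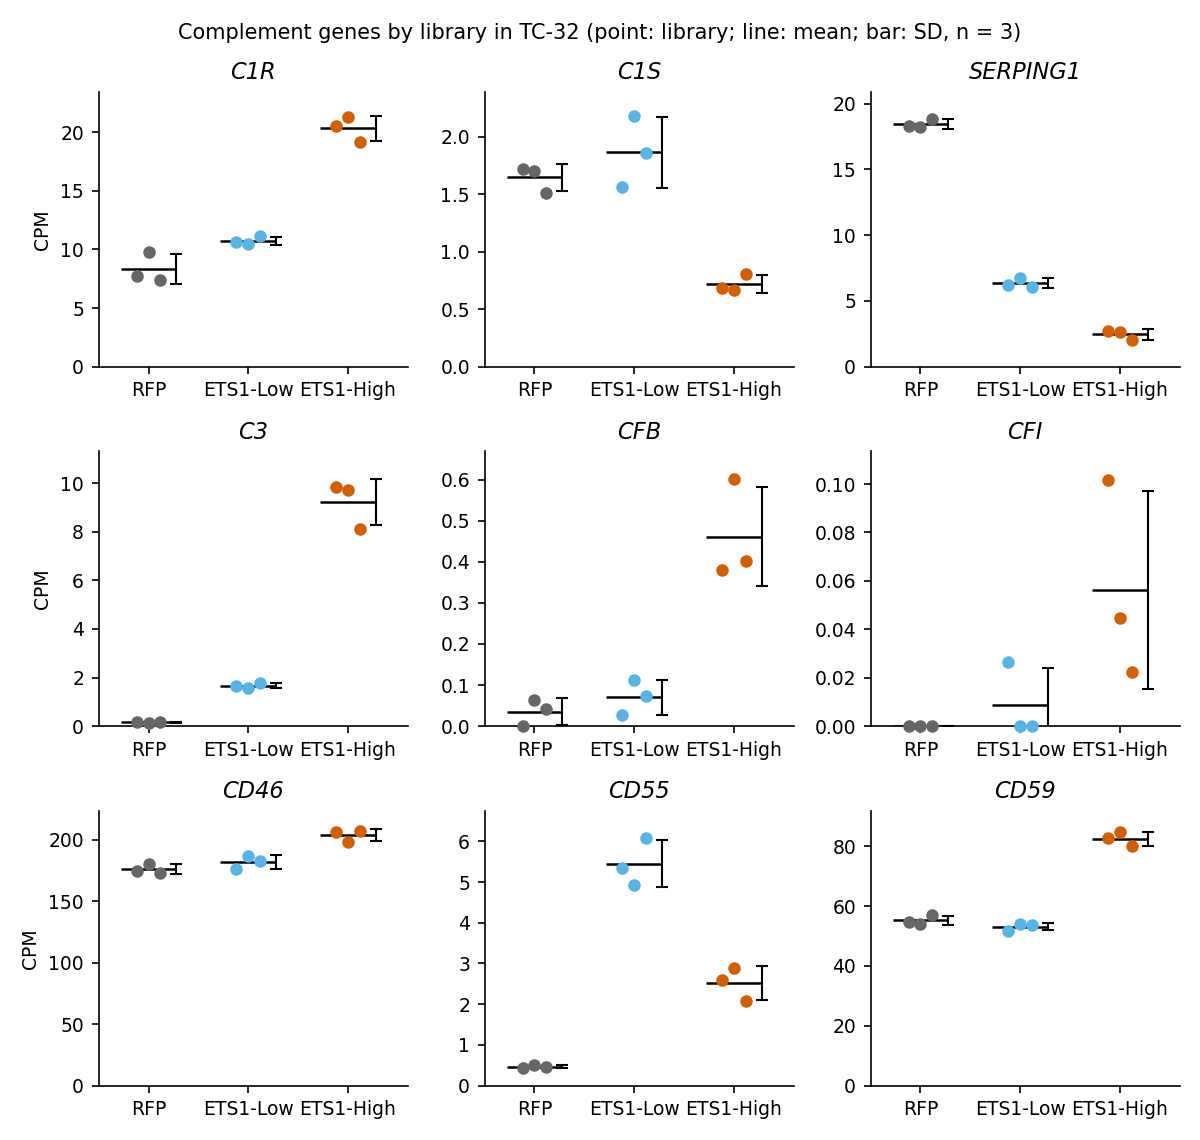
Level of each complement gene in every library, in CPM on a linear axis that starts at 0 and differs between panels. Points are libraries, lines are means of 3 libraries and bars are SD. C3 and C1R are highest in ETS1-High, SERPING1 is highest in RFP, and CD55 is highest in ETS1-Low.

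C1R, the protease that starts the classical cascade (chr12:7080214-7092540, minus strand), was at 7.71, 9.77 and 7.42 CPM in RFP replicates 1 to 3, at 10.6, 10.5 and 11.1 in ETS1-Low and at 20.5, 21.3 and 19.2 in ETS1-High. The 3 groups did not overlap in CPM, and RFP replicate 2 was the library of its group nearest to ETS1-Low. On the FPKM scale RFP, at 3.23 to 4.30, overlapped ETS1-Low, at 4.11 to 4.78, so their separation depends on the scaling. Against RFP, C1R differed by 1.29 (SE 0.07) on the log2 scale in ETS1-High and by 0.37 (SE 0.08) in ETS1-Low, and the ETS1 groups differed from each other by 0.92 (SE 0.07). Some of its exons overlap those of C1RL on the same strand, and its expected count was not whole in 4 libraries, so that shared reads were divided between genes.

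C1S, the protease that C1r activates (chr12:6988259-7071032, plus strand), went the other way. It was at 1.73, 1.71 and 1.52 CPM in RFP, at 1.56, 2.18 and 1.86 in ETS1-Low and at 0.685, 0.667 and 0.806 in ETS1-High. All ETS1-High libraries lay below the other 6, and RFP and ETS1-Low overlapped. Against RFP, C1S differed by -1.19 (SE 0.20) on the log2 scale in ETS1-High and by 0.18 (SE 0.17) in ETS1-Low, and ETS1-High differed from ETS1-Low by -1.38 (SE 0.20). The ETS1-High values rest on 27, 30 and 36.06 expected counts, and C1S shares exons with an unnamed gene on its strand, with counts not whole in 6 libraries. C1S and C1R are neighbours, 9181 bases apart on opposite strands with their 3′ ends facing each other.

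SERPING1 encodes C1 inhibitor, the serpin that blocks C1r and C1s (chr11:57597387-57619171, plus strand). It was at 18.3, 18.2 and 18.9 CPM in RFP, at 6.24, 6.76 and 6.05 in ETS1-Low and at 2.74, 2.6 and 1.99 in ETS1-High. The groups were far apart and ordered against the ETS1 level, with log2 fold changes against RFP of -2.92 (SE 0.09) in ETS1-High and -1.54 (SE 0.08) in ETS1-Low, and of -1.38 (SE 0.10) between the ETS1 groups. The 198 other genes within 10 Mb had median log2 fold changes of 0.41, 0.46 and -0.04 in the same 3 comparisons.

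Because C1R, C1S and SERPING1 act as protease and inhibitor, their expected counts were also set against each other within each library, where library size cancels. C1R had 4.46, 5.72 and 4.89 counts for each C1S count in RFP, 6.79, 4.81 and 6.0 in ETS1-Low and 29.9, 31.9 and 23.8 in ETS1-High. The ratio was therefore 28.5 ± 4.2 (SD, n = 3) in ETS1-High, above every library of the other groups, which overlapped each other at 5.02 ± 0.64 and 5.86 ± 1.0. C1R had 0.422, 0.537 and 0.393 counts for each SERPING1 count in RFP, 1.70, 1.55 and 1.84 in ETS1-Low and 7.48, 8.17 and 9.63 in ETS1-High. SERPING1 counts thus exceeded C1R counts in the RFP libraries, and C1R counts exceeded SERPING1 counts in both ETS1 groups. The means were 0.451 ± 0.076, 1.70 ± 0.14 and 8.43 ± 1.1. These are ratios of read counts that are not corrected for gene length. On the FPKM scale, which is per length, the C1R to SERPING1 ratio was 0.248 ± 0.036 in RFP and 3.83 ± 0.26 in ETS1-High. In the ETS1-Low libraries it was 0.903, 0.766 and 1.11, so neither gene led in every library of that group.

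**Figure D2:**
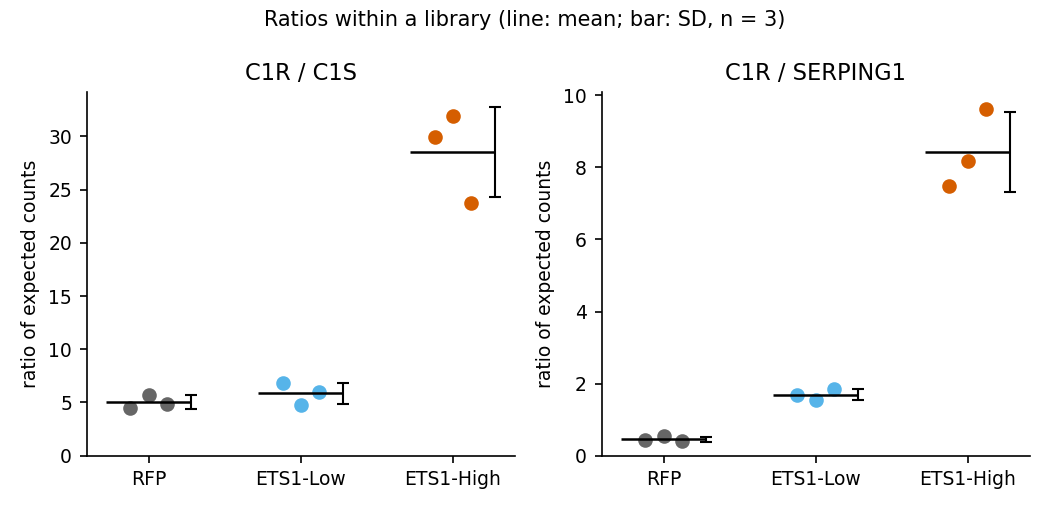
Expected counts of C1R for each count of C1S (left) and of SERPING1 (right) in every library, on linear axes from 0, with means as lines and SD as bars (n = 3). The C1R to C1S ratio lies between 23.8 and 31.9 in ETS1-High, and the C1R to SERPING1 ratio is separate in all 3 groups.

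C3, the protein on which all routes of activation converge (chr19:6677704-6730562, minus strand), differed most between groups. It was at 0.166, 0.149 and 0.164 CPM in RFP, from 8, 7 and 8 counts, at 1.67, 1.56 and 1.76 in ETS1-Low, from 63, 70 and 72 counts, and at 9.82, 9.70 and 8.13 in ETS1-High, from 387, 436 and 363 counts. No groups overlapped. Against RFP, C3 differed by 5.82 (SE 0.17) on the log2 scale in ETS1-High and by 3.35 (SE 0.23) in ETS1-Low, and the step between the ETS1 groups was 2.47 (SE 0.12). On the deposited FPKM scale the ETS1-Low libraries were at 0.81, 0.35 and 1.24, a wider spread than that of their counts. With limma on log2(FPKM + 1) or log2(FPKM + 0.1), which understates the change of low genes, the difference between ETS1-High and RFP ran from 2.15 to 4.35 on the log2 scale. The 331 genes within 10 Mb had medians of 0.26, 0.30 and -0.05 in the 3 comparisons.

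CFB, which joins C3b to form the alternative C3 convertase (chr6:31945650-31952086, plus strand), was near the floor of the counts in 2 groups. Its expected counts were 0, 3 and 2 in RFP, 0.63, 5 and 3 in ETS1-Low and 15, 27 and 18 in ETS1-High, or 0.381, 0.601 and 0.403 CPM in ETS1-High. All ETS1-High libraries lay above all others, and RFP and ETS1-Low overlapped. From the summed counts CFB was 13.4 times as high in ETS1-High as in RFP, with a 95% interval of 5.42 to 42.7, and 2.09 times as high in ETS1-Low as in RFP, with an interval of 0.63 to 7.95; both intervals cover counting error only. The log2 fold change in ETS1-High against ETS1-Low was 2.63 (SE 0.52). The fitted log2 fold change in ETS1-High against RFP, 3.63, was 4.31 without RFP replicate 2. CFB passed the filter on low counts only through ETS1-High, and it overlaps C2 by 24 bases on the same strand.

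CFI, the protease that inactivates C3b and C4b with cofactors such as CD46 (chr4:109731008-109802150, minus strand), did not pass the filter. It had 0 counts in each RFP library, 1, 0 and 0 counts in ETS1-Low and 4, 2 and 1 in ETS1-High. A count of 0 allows up to 3 counts, or 0.0793 CPM at the lowest depth here, so no fold is given for CFI. The counts do not show whether the groups differed at this depth.

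CD46, the cofactor for factor I on the cell surface (chr1:207752037-207795513, plus strand), was the most abundant of the 9 genes. It was at 175, 181 and 173 CPM in RFP, at 176, 187 and 183 in ETS1-Low and at 207, 198 and 207 in ETS1-High. ETS1-High lay above the other groups, which overlapped. The log2 fold changes were small at 0.21 (SE 0.03) in ETS1-High against RFP, 0.05 (SE 0.03) in ETS1-Low against RFP and 0.16 (SE 0.03) in ETS1-High against ETS1-Low. The ETS1-Low value was -0.08 on the log2(FPKM + 1) scale, so its sign depends on the scaling.

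CD59 blocks the assembly of the membrane pore (chr11:33703010-33736479, minus strand). It was at 54.8, 53.9 and 56.9 CPM in RFP, at 51.6, 53.9 and 53.8 in ETS1-Low and at 82.9, 84.7 and 80.0 in ETS1-High. ETS1-High stood apart from the other 6 libraries, with log2 fold changes of 0.58 (SE 0.03) against RFP and 0.64 (SE 0.03) against ETS1-Low. The difference between ETS1-Low and RFP was -0.06 (SE 0.04), with the nearest libraries of the groups almost equal. CD59 shares exons with an unnamed gene on its strand and its count was not whole in any library.

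CD55, also called decay-accelerating factor, takes apart the C3 convertases (chr1:207321519-207386804, plus strand). It was the only member whose highest level was in ETS1-Low with no overlap of any 2 groups. It was at 0.436, 0.512 and 0.451 CPM in RFP, from 21, 24 and 22 counts, at 5.34, 4.94 and 6.08 in ETS1-Low and at 2.59, 2.89 and 2.08 in ETS1-High. Against RFP the log2 fold change of CD55 was 2.43 (SE 0.19) in ETS1-High and 3.54 (SE 0.17) in ETS1-Low, and ETS1-High differed from ETS1-Low by -1.11 (SE 0.13). CD55 and CD46 lie on the same strand of chromosome 1, 365232 bases apart, and the 86 other genes within 10 Mb of CD55 had medians of -0.16, -0.21 and 0.05.

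**Figure D3:**
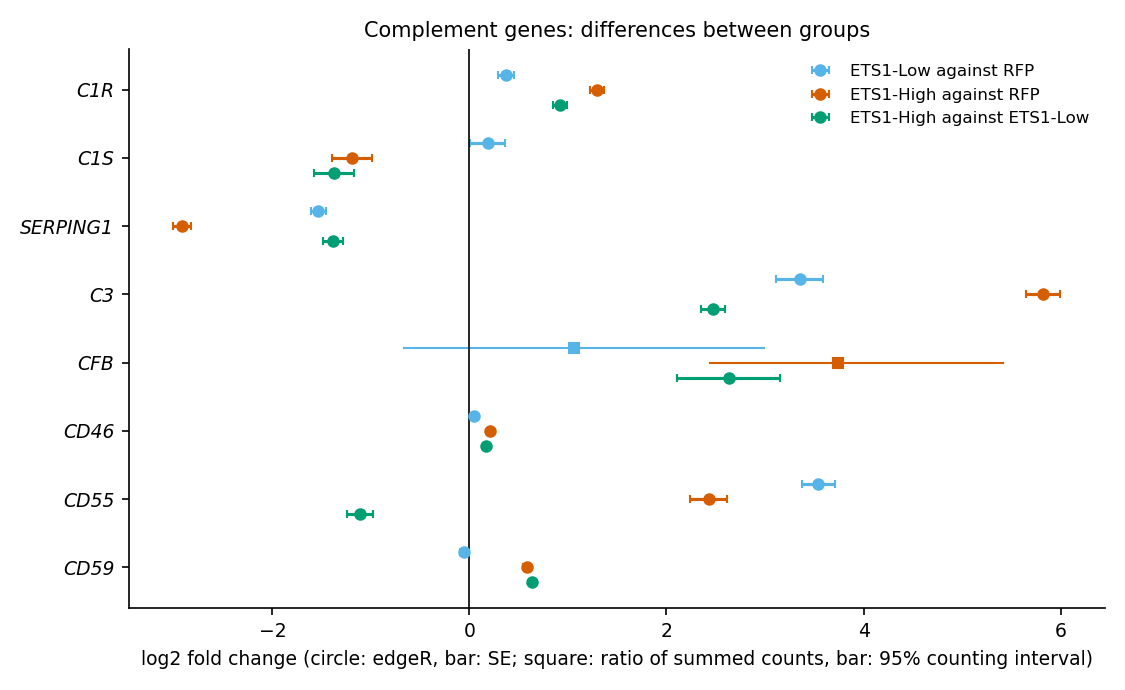
Log2 fold changes of the 8 complement genes past the filter in the 3 comparisons. Circles are edgeR estimates with SE bars; squares, for CFB against RFP, are ratios of summed counts with 95% counting intervals. C3 reaches 5.82 and SERPING1 -2.92 in ETS1-High against RFP, and CD55 is on opposite sides of 0 against RFP and against ETS1-Low.

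A gene was called where the edgeR quasi-likelihood test gave a Benjamini-Hochberg adjusted p under 0.05 over all 17235 genes tested. In ETS1-High against RFP, 74.2% of tested genes passed (37% higher, 37.2% lower), and of the 8 members past the filter 6 were called higher and 2 lower. In ETS1-Low against RFP, 74.1% were called, 37.9% higher and 36.2% lower; C1R, C3 and CD55 were called higher, SERPING1 was called lower, and CFB, C1S, CD46 and CD59 were not called. In ETS1-High against ETS1-Low, 59.2% were called, 29.9% higher and 29.3% lower, with C1R, C3, CFB, CD46 and CD59 called higher and C1S, CD55 and SERPING1 called lower. The medians of the 8 members were 0.94, 0.28 and 0.40 on the log2 scale, beside -0.01, 0.01 and 0.00 over all genes. Nothing is read from these counts, which describe genes chosen with the contrasts known, and the 2 comparisons against RFP share its libraries.

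The rest of the cascade was read from a list of 52 other complement genes. The list follows textbook knowledge but was chosen with earlier results of these data known, so its calls and p-values are not independent support. All 52 symbols were found, 22 genes passed the filter and 15 were at 0 in every library, among them C1QA and C1QB of the recognition protein C1q, MBL2, CR1 and CR2. Of the 22, 7 were called higher and 8 lower in ETS1-High against RFP, where 74.2% of all genes tested were called. In ETS1-Low against RFP, 7 were called higher and 10 lower, where 74.1% of all genes were called. Between the ETS1 groups, 8 were higher and 6 lower in ETS1-High, where 59.2% of all genes were called. Nothing about these genes is read from the counts. Their medians were -0.12, -0.23 and 0.10 on the log2 scale, beside the -0.01, 0.01 and 0.00 of all genes. In ETS1-High against ETS1-Low the median was 0.13 when the 3 genes with both groups at the floor were left out.

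Among the genes that start the cascade, C1RL, a C1r-like protease whose exons overlap those of C1R, fell while C1R was higher. It was at 3.22 ± 0.39 CPM in RFP, 0.471 ± 0.082 in ETS1-Low and 0.742 ± 0.11 in ETS1-High, with edgeR adjusted p of 9.49e-18 and 6.51e-15 against RFP. C1R was at 8.30 CPM in RFP and 10.7 in ETS1-Low. Counts were not whole in 3 libraries for C1RL and in 4 for C1R. The part of this division of shared reads in the 2 differences was not tested. MASP1, a protease of the lectin pathway, was at 0.0353 ± 0.045, 0.171 ± 0.033 and 0.707 ± 0.28 CPM and was 4.24 higher on the log2 scale in ETS1-High against RFP. MASP1 passed the filter only through ETS1-High, so its difference is a description and not a test. MASP2 fell by 1.26 in ETS1-High against ETS1-Low (edgeR adjusted p = 0.000935), at 0.280 ± 0.071 and 0.676 ± 0.086 CPM. C2, which C1s cleaves, rose by 1.17 in ETS1-Low against RFP (edgeR adjusted p = 0.00146), from 0.342 ± 0.15 to 0.771 ± 0.18 CPM, but limma on log2(FPKM + 1) did not call it (adjusted p = 0.0975). C4A and C4B, the other C1s substrate, are near-identical copies, and their split is uncertain. CFD, the protease that cleaves factor B, rose in both ETS1 groups, from 2.04 ± 0.22 CPM to 6.64 ± 0.37 in ETS1-Low and 5.70 ± 0.25 in ETS1-High (edgeR adjusted p = 9.15e-20 and 2.79e-17).

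Downstream of C3, C5 was at 6.94 ± 0.36 CPM in RFP, 3.70 ± 0.26 in ETS1-Low and 8.01 ± 0.35 in ETS1-High, so that it fell by 0.91 in ETS1-Low against RFP (edgeR adjusted p = 1.91e-12). Its difference of 0.21 in ETS1-High against RFP had an edgeR adjusted p of 0.0235, and DESeq2 gave 0.135. The pore component C7 had 15 to 16 counts in each RFP library and 0 in all 6 ETS1 libraries. By the floor of 3 counts in each library it was at least 4.2-fold lower in ETS1-High and at least 4.03-fold lower in ETS1-Low. C7 passed the filter only through RFP, so its fall is a description. CLU, the fluid-phase inhibitor of the pore, fell from 643 ± 16 CPM to 101 ± 0.64 in ETS1-Low and 105 ± 2.5 in ETS1-High (edgeR adjusted p = 4.03e-51 and 6.58e-51).

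Of the other membrane regulators, CSMD3 rose by 1.59 in ETS1-High against RFP, from 2.24 ± 0.077 to 6.74 ± 0.59 CPM (edgeR adjusted p = 4.9e-18), while CSMD1, CSMD2 and SUSD4 fell in both ETS1 groups. CSMD2 was at 1.5 CPM in RFP and at 0 in ETS1-Low, at least 18.9-fold lower, and SUSD4 was at 0.472 CPM in RFP and at 0 in ETS1-High, at least 6.2-fold lower. CSMD1 was at 0.737 CPM in RFP, 0.0244 in ETS1-Low and 0.195 in ETS1-High. Its change of -1.91 on the log2 scale between ETS1-High and RFP was not called by limma on log2(FPKM + 1) (adjusted p = 0.158). CSMD1, CSMD2 and SUSD4 passed the filter only through RFP, so their falls are a description and not a test. The anaphylatoxin receptors followed the ETS1 groups differently. C3AR1 was at 0.139 ± 0.024, 0.620 ± 0.042 and 0.145 ± 0.039 CPM in the 3 groups in the usual order, and C5AR2 at 1.26 ± 0.34, 2.78 ± 0.092 and 0.460 ± 0.063, both highest in ETS1-Low as CD55 was. In ETS1-High against ETS1-Low their log2 fold changes were -2.06 and -2.59, with an edgeR adjusted p of 2.38e-15 for C5AR2. C3AR1 passed the filter only through ETS1-Low, so its difference is a description and not a test. C5AR1 was 1.21 higher on the log2 scale in ETS1-High against RFP (edgeR adjusted p = 0.00179), but this call was lost without ETS1-High replicate 3, with 0.85 and an adjusted p of 0.0584.

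**Figure D4:**
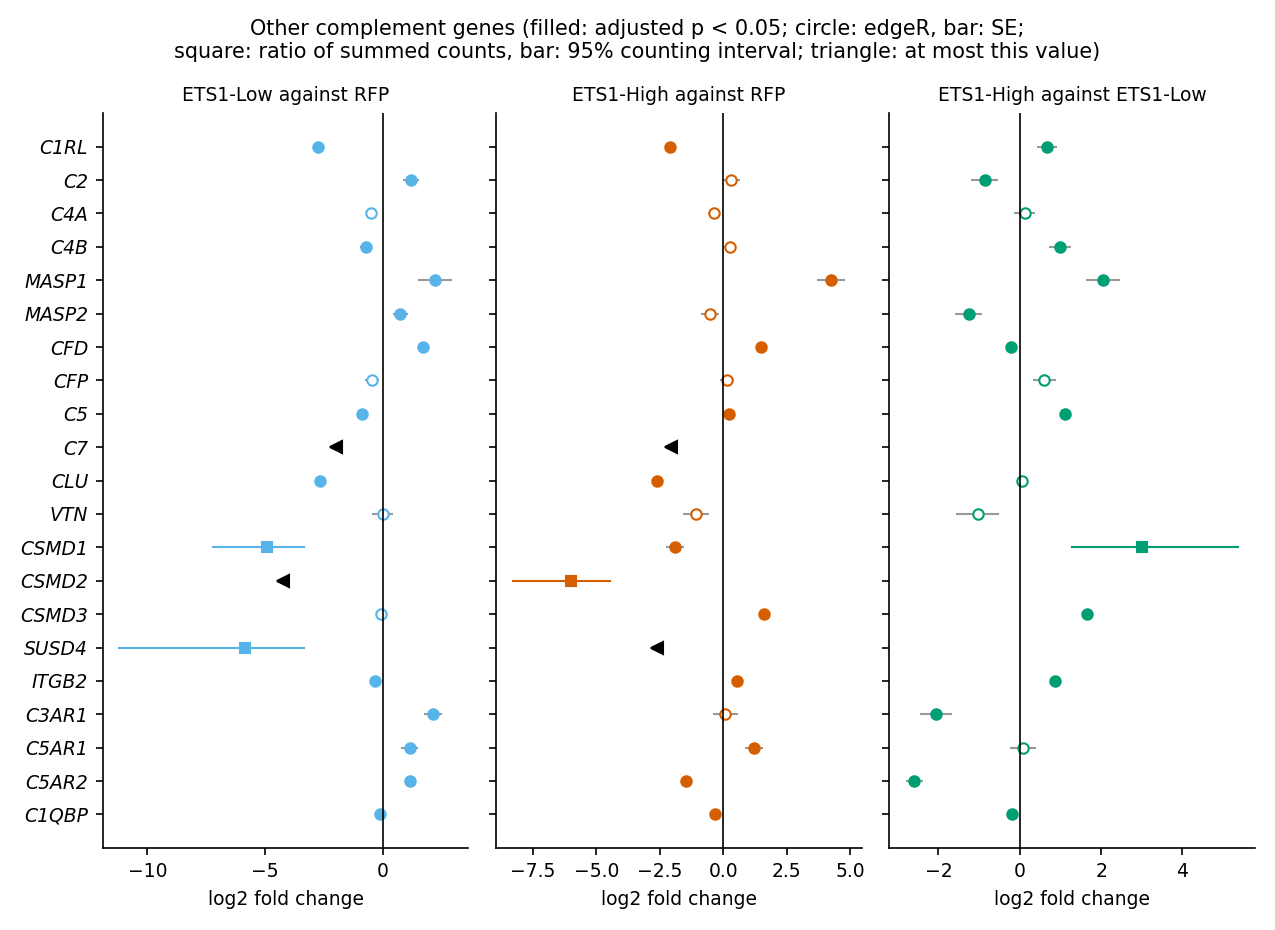
Log2 fold changes of 21 of the 22 other complement genes past the filter in the 3 comparisons, with separate axes. Filled symbols have an adjusted p under 0.05, circles are edgeR estimates with SE bars, squares are ratios of summed counts with 95% counting intervals and triangles are upper limits where a group had no counts. Against RFP, MASP1 lies to the right in ETS1-High at 4.24 (SE 0.54), with at most 4 counts in any RFP library. MASP1 passed the filter only through ETS1-High, so its place is a description. CLU and C1RL lie to the left in both ETS1 groups.

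The signals known to induce complement genes were read from a list of 28 genes of interferon, interleukin-6 and NF-kB signalling, of which 27 passed the filter. This list too was chosen with earlier results of these data known, so its calls and p-values are not independent support. Against RFP, 19 were called higher and 6 lower in ETS1-High, and 17 higher and 6 lower in ETS1-Low. Of all genes tested, 37% were called higher and 37.2% lower in ETS1-High, and 37.9% and 36.2% in ETS1-Low. Between the ETS1 groups 16 were higher and 7 lower in ETS1-High, beside 29.9% and 29.3% of all genes tested. The medians were 0.51, 0.31 and 0.16 on the log2 scale, beside -0.01, 0.01 and 0.00 over all genes. IRF1, a transcription factor induced by interferon gamma, ran in the order of ETS1, as C3 and C1R did, at 5.06 ± 0.16 CPM in RFP, 7.17 ± 0.79 in ETS1-Low and 24.3 ± 0.64 in ETS1-High. Its log2 fold change was 2.26 in ETS1-High against RFP and 0.50 in ETS1-Low against RFP (edgeR adjusted p = 3.15e-32 and 3.78e-07). STAT2 was at 32.5 ± 0.85, 41.4 ± 0.75 and 57.3 ± 1.5 CPM, and IRF2 at 10.0 ± 0.94, 24.6 ± 0.36 and 28.1 ± 0.73. The edgeR adjusted p in ETS1-High against RFP was 3.42e-25 for STAT2 and 9.78e-29 for IRF2. On log2(FPKM + 1) with limma, STAT2 was not called in ETS1-Low against RFP (adjusted p = 0.847).

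The kinase JAK1 and the oncostatin M receptor OSMR were highest in ETS1-Low, as CD55 was. JAK1 was at 280 ± 8.1 CPM in RFP, 617 ± 6.8 in ETS1-Low and 531 ± 9.2 in ETS1-High, and OSMR at 40.1 ± 1.7, 94.2 ± 3.3 and 79.2 ± 3.6. Between the ETS1 groups both were called lower in ETS1-High, at -0.22 and -0.25 on the log2 scale (edgeR adjusted p = 6.28e-09 and 2.54e-08). TNFRSF1A, a receptor for tumour necrosis factor, had the group order of SERPING1 and fell from 84.5 ± 1.6 CPM in RFP to 68.4 ± 2.8 in ETS1-Low and 52.7 ± 1.6 in ETS1-High (edgeR adjusted p = 2.71e-11 and 1.97e-23). CEBPB, a transcription factor of the acute-phase response, was at 175 ± 4.0, 209 ± 3.1 and 127 ± 4.8 CPM, higher in ETS1-Low and lower in ETS1-High than in RFP (edgeR adjusted p = 2.01e-10 and 9.99e-19). The part of these genes in the levels of the complement genes was not tested.

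**Figure D5:**
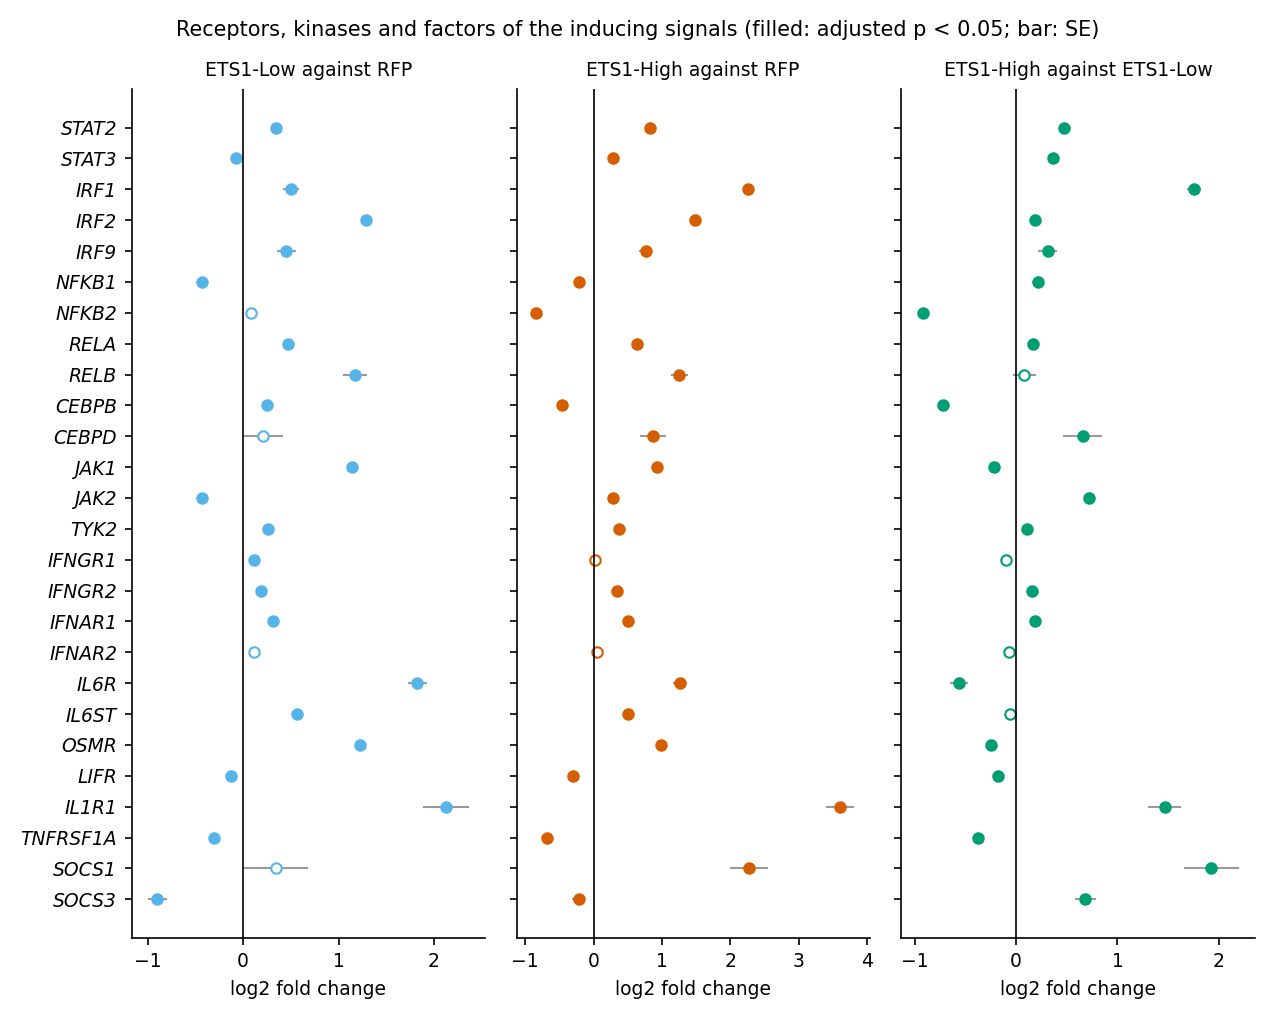
Log2 fold changes of 26 of the 27 inducing-signal genes past the filter in the 3 comparisons, with separate axes. Circles are edgeR estimates with SE bars, filled where the adjusted p is under 0.05. Against RFP, IRF1 lies at 0.50 in ETS1-Low and 2.26 in ETS1-High, and JAK1 and OSMR lie to the left of 0 in ETS1-High against ETS1-Low.

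C3 had the widest range of group means of the members. The 3 genes nearest to its pattern, by the root-mean-square difference of log2 CPM centred on the RFP mean over the 9 libraries, were ATOH8 (0.16), ITPR1 (0.48) and MFAP5 (0.48). ATOH8, a basic helix-loop-helix transcription factor, was at 0.592 ± 0.042 CPM in RFP, 6.75 ± 0.19 in ETS1-Low and 32.8 ± 1.2 in ETS1-High. ITPR1, a calcium channel of the endoplasmic reticulum, was at 6.84 ± 0.52, 106 ± 0.35 and 265 ± 13 CPM, and the matrix gene MFAP5 at 0.0693 ± 0.031, 1.19 ± 0.11 and 4.36 ± 0.63.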

How the data were processed

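RNA-seq of 9 TC-32 libraries (3 RFP, 3 ETS1-Low, 3 ETS1-High; groups from the sample titles) was analysed from 2 tables the authors deposited. Per the file headers these hold RSEM expected counts per gene and RSEM FPKM, which the authors scaled to gene length and library size. The libraries were stranded, per the labels' protocols. The submitters' processing notes name cutadapt 4.4, STAR 2.7.3, featureCounts, Subread 2.0.3, limma 3.38.3 and GRCh38, without giving their roles; how RSEM was run is not given in the sources used here. Between 9.00% and 10.3% of the expected counts per library were not whole.

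The expected counts were rounded and tested with edgeR 4.0.16 (R 4.3.3; glmQLFit with robust estimation, glmQLFTest) after TMM scaling. The low-count filter filterByExpr left 17235 genes. The fit held all 9 libraries and no factor but the group. Benjamini-Hochberg adjustment of p covered every gene tested. Levels are CPM on TMM-scaled library sizes. SE is the unshrunk coefficient divided by the square root of F. With 0 counts in a group a fold is a bound from a floor of 3 counts in each library, and with at most 3 counts in each library it is a ratio of summed counts with an exact 95% interval. Reads carry no molecular identifiers, so floors and intervals cover counting error only. The chi-square per gene between replicate libraries was 2.66 to 5.19 over 9 pairs, above the value near 1 of sampling noise, so each library counted once. Gene positions are from GENCODE v44 on GRCh38.

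The members and gene lists were chosen with earlier results of these data known. Text names all members, ETS1, list genes with a called change of at least 2-fold in a comparison, the 8 signalling genes with the smallest p, the 2 leading genes of a marker list and the 3 genes nearest C3; some genes that the rule names are not reported here. The alternatives were DESeq2 (1.42.0) size factors and its Wald test, other filters, a replicate block, a fit to only the 2 groups of a comparison, fits without each library in turn, and limma 3.58.1 on log2(FPKM + 1) and log2(FPKM + 0.1). The fit was tested on simulated counts. DESeq2 and limma entered only as alternatives.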

Additional observations from a re-analysis of the deposited data

Results flagged for a closer look

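The effects of ETS1-Low and ETS1-High, both set against the same RFP libraries, differed for 18 of the 23 named genes that are not members, by the edgeR test of ETS1-High against ETS1-Low. Many of them were named for a called change in a comparison, this one included, and 59.2% of all genes tested were called in it, so the count itself says nothing about these genes. ETS1 itself differed by 0.85 on the log2 scale. Among the complement genes MASP1 differed by 2.04, CSMD1 by 2.86, CSMD3 by 1.65, C5 by 1.11 and C1RL by 0.66, all higher in ETS1-High. In the other direction C5AR2 differed by -2.59, C3AR1 by -2.06, MASP2 by -1.26, C2 by -0.86 and CFD by -0.22. The calls of MASP1 and CSMD1 were lost with limma on FPKM, and those of C1RL, C2 and CFD with DESeq2 and when some libraries were left out. MASP1, CSMD1 and C3AR1 each passed the filter on low counts through a single group, so their differences are a description. CSMD1 rests on at most 3 counts in each ETS1-Low library, where the ratio of summed counts was 7.99 with a 95% counting interval of 2.44 to 41.4. Of the signalling genes IRF1 differed by 1.76, STAT2 by 0.47 and IRF2 by 0.19, and CEBPB by -0.72, TNFRSF1A by -0.38, OSMR by -0.25 and JAK1 by -0.22. For CD59 every ETS1-High library lay above, and every ETS1-Low library below, the RFP libraries, and the log2 fold change between the ETS1 groups was 0.64. The step below RFP was slight, with the highest ETS1-Low library at 53.87 CPM and the lowest RFP library at 53.92. The ETS1-Low difference of -0.06 from RFP was not called. On FPKM, ETS1-Low at 34.47 to 36.05 overlapped RFP at 35.56 to 41.66. These CD59 values are a description: CD59 was chosen with these results known, so its call in the fit across all genes is not read as a test.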

How the results depend on the processing

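No member changed the sign of a difference called in any comparison under the alternatives that gave it a value. Their sizes moved on FPKM, where a pseudocount shrinks low genes. C1R, which was not at the floor, moved as well. In ETS1-High against RFP it was 0.90 to 1.05 on FPKM, beside 1.29 on counts. In ETS1-Low against RFP it was 0.14 to 0.17, beside 0.37. What else differs between the 2 scales was not tested. In ETS1-High against RFP the log2 difference ran over the FPKM settings from 0.46 to 1.85 for CFB, 0.88 to 2.00 for CD55, 2.15 to 4.35 for C3 and -1.37 to -0.69 for C1S. In ETS1-Low against RFP it ran from 0.68 to 2.07 for C3 and 1.57 to 3.03 for CD55, and in ETS1-High against ETS1-Low from 0.43 to 1.60 for CFB, 1.47 to 2.29 for C3 and -1.39 to -0.71 for C1S. Leaving out each library in turn, the genes called in ETS1-High against RFP, ETS1-Low against RFP and ETS1-High against ETS1-Low numbered 12392 to 12971 (12785 in all libraries), 12401 to 12977 (12773) and 9504 to 10337 (10196). Other complement genes called higher numbered 5 to 7, 6 to 7 and 7 to 9, and lower 8 to 9, 9 to 10 and 4 to 6. Signalling genes called higher numbered 19 to 19, 16 to 18 and 15 to 16, and lower 5 to 6, 5 to 6 and 7 to 7.

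Requiring at least 10 counts in every library left fewer genes tested, and other complement genes called were then 4 higher and 4 lower in ETS1-High against RFP, 2 and 6 in ETS1-Low against RFP, and 3 lower in ETS1-High against ETS1-Low. With limma on log2(FPKM + 1) and a mean FPKM of at least 1, also with fewer genes tested, they were 2 and 3, 1 and 5, and 3 and 1. With no such filter 5 were called higher in ETS1-High against ETS1-Low on log2(FPKM + 1) and 5 on log2(FPKM + 0.1). Signalling genes called higher in ETS1-Low against RFP were 10, 10 and 9 under the 3 FPKM settings; the cause was not tested. CSMD3 in ETS1-Low against RFP, not called at -0.07 on counts, was 0.59 on log2(FPKM + 0.1) (limma adjusted p = 0.0311).

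Of the other named genes, C5 in ETS1-High against RFP lost its call without RFP replicate 2 or 3 or ETS1-High replicate 1 or 3 (adjusted p 0.0571, 0.093, 0.0593 and 0.0768). MASP2 in ETS1-Low against RFP lost it without RFP replicate 1 or 2 or ETS1-Low replicate 1 or 3 (0.0575, 0.105, 0.0859 and 0.0737). In ETS1-High against ETS1-Low, C2 lost it without ETS1-Low replicate 2 or ETS1-High replicate 1 (0.122 and 0.139), C1RL without ETS1-Low replicate 3 or ETS1-High replicate 2 (0.0836 and 0.0989), and CFD without ETS1-Low replicate 1 or 2 or any ETS1-High replicate (0.0606 to 0.185). In that comparison DESeq2 did not call C1RL (0.0651), C2 (0.109) or CFD (0.205), CFD was not called with DESeq2 size factors (0.0555) or no filter (0.079), and limma on log2(FPKM + 1) and log2(FPKM + 0.1) did not call MASP1 (0.116 and 0.121), CSMD1 (0.337 and 0.106), C1RL (0.221 and 0.0507), C2 (0.15 and 0.167) or CFD (0.172 and 0.198). Against RFP, MASP1 in ETS1-Low was not called on log2(FPKM + 1) (0.106), nor MASP2 in ETS1-Low by DESeq2 (0.141).

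Libraries with the same replicate number did not deviate together, with correlations of -0.09 to 0.11 over 9 pairs, so the samples share only a number. With the replicate block 12701, 12729 and 10122 genes were called. Depth limits CFI and CFB, which had at most 5 counts in any RFP or ETS1-Low library.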
